A study of Mus musculus with 72 samples.

Results

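Genes for DNA replication licensing and nucleotide supply were followed in the liver and lung of whole body irradiated mice. The 10 genes were chosen by name: the 6 subunits of the minichromosome maintenance helicase (Mcm2, Mcm3, Mcm4, Mcm5, Mcm6 and Mcm7), the loading factor Cdc6, the helicase cofactor Cdc45, and the nucleotide enzymes Rrm2 and Tyms. They are 10 of the 23787 genes that the arrays' RefSeq accessions name, and 17 of the 56605 probes belong to them. Female C57BL/6 J mice of 6 to 8 weeks received 1 total body exposure to X-rays or a sham exposure (0 Gy), and tissue was taken 48 h later. The dose was 1 or 2 Gy at the low end, 4 Gy in the middle, and 8 or 12 Gy at the high end. Each dose had 3 samples in each tissue, so that 36 one-colour mRNA arrays were used, 1 array per sample. The labels number the samples alike in both tissues, without saying whether a shared number is 1 mouse. The series' design text gives 3 animals per dose. The labels name no transgene, drug or deletion in any group, and RNA came from powdered tissue with no sorting of cells named.

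Before a cell copies its DNA, the Mcm2 to Mcm7 proteins are loaded as a ring onto each origin of replication, a step called licensing that needs Cdc6. Origins fire when Cdc45 and the GINS complex join the ring and turn it into the working helicase. Copying then draws on deoxynucleotides, for which Rrm2 is the small subunit of ribonucleotide reductase and Tyms makes the thymidylate. Transcription of most of these genes is tied to E2F factors and rises as cells enter S phase. In an adult liver or lung few resident cells divide, while blood precursors and some lymphocytes divide more. RNA of a whole tissue was measured, and fewer cells carrying a transcript cannot be told apart from less of it per cell.

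Promoter sequence from RefSeq (build GRCm38.p6, 250 bases before to 50 after the annotated start) was given for 9 of the 10 genes, with 2 starts for Mcm7. No entry was at hand for Mcm4. Each was searched on both strands for the E2F words TTTCCCGC, TTTGGCGC, TTTCGCGC and TTTGCCGC, which can overlap one another, and for CCAAT, the core of NF-Y sites. An E2F word stood in 5 of the 10 entries, against 2.26% of all 32851 promoters, and CCAAT in 8 of 10, against 37.4%. The genes with an E2F word were Mcm3, Mcm5, Mcm6, Mcm7 and Cdc6. The word TTTGAA, the core of cell cycle homology regions, was in 2 entries, those of Mcm2 and Cdc45, against 17.9%. These matches describe letters in a window and show no binding. The first 5 sequences below are the 250 bases before the start. They belong to 3 helicase genes with the E2F word and to Rrm2 and Tyms, which lack it in this window. These genes were picked because they differ in how they moved with dose, and whether the word goes with that was not tested. The sixth is the 30 bases of Mcm3 that end at its second E2F word, both of which lie after the annotated start. Capitals mark E2F words and CCAAT on either strand, so that CCAAT on the other strand reads ATTGG. In Mcm5 and Mcm6 a run of 12 capitals is a pair of overlapping E2F words.

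Mcm5 (chr8:75109259-75109508, plus strand): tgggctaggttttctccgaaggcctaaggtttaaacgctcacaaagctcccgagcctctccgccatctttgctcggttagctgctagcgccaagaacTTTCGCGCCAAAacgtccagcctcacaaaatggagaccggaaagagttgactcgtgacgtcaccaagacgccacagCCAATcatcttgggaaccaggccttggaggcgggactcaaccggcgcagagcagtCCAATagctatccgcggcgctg

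Mcm6 (chr1:128359706-128359955, minus strand): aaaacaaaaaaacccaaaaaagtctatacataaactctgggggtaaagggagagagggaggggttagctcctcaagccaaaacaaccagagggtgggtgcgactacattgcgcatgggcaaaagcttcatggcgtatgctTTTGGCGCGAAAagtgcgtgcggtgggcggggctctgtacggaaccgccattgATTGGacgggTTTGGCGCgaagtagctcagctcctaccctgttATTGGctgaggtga

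Mcm7 (chr5:138171884-138172133, minus strand): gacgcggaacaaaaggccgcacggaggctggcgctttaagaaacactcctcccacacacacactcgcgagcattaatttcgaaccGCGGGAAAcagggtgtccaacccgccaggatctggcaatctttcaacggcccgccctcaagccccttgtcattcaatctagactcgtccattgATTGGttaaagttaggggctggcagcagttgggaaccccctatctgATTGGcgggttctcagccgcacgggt

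Rrm2 (chr12:24708004-24708253, plus strand): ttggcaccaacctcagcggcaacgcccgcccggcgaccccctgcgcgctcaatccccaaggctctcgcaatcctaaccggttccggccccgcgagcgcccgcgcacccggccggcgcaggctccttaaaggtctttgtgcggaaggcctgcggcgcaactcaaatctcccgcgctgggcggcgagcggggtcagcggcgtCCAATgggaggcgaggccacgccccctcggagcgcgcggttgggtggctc

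Tyms (chr5:30073626-30073875, minus strand): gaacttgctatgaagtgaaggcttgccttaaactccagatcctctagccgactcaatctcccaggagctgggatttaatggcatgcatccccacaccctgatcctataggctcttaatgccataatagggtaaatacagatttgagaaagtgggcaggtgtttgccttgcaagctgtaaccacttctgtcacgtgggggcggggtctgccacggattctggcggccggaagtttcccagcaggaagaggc

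Mcm3 (chr1:20820267-20820296, minus strand): gtgGCGGGAAAacttgggaagtTTTGGCGC

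Values below are log2 intensities of 1 probe per gene, the brightest over the 36 arrays, after background correction and quantile normalization within a tissue. A change was called where it exceeded 1 in size on the log2 scale and its adjusted p was below 0.05, from a limma model of 6 dose groups and Benjamini-Hochberg adjustment over 38362 liver or 43979 lung probes. The dose trend is a linear slope expressed as the log2 change over 12 Gy. Between 46.1% and 54.0% of spots were well above background on a liver array and between 54.1% and 64.0% on a lung array, and replicate arrays correlated at 0.973 to 0.991. Arrays were run on 5 slides, filled mostly in order of dose. The liver at 0 and 1 Gy lay on slide 1 with most of 2 Gy, 4 and 8 Gy lay on slide 2, and 12 Gy was split between slides 2 and 3. The lung at 0 and 1 Gy lay on slide 3, 2 and 4 Gy with most of 8 Gy on slide 4, and 12 Gy with 1 array of 8 Gy (sample 25) on slide 5. From 2 Gy upward, slide and dose cannot be told apart against the lung controls, and the 4 arrays of slide 5 had the fewest spots above background of any lung arrays (54.1% to 54.8%). All 15 hepatocyte markers were well above background on every liver array, and all 11 lung epithelial markers on every lung array.

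In liver Mcm5 fell at 4, 8 and 12 Gy and with dose, and Mcm2 fell at 8 Gy. At 8 Gy all 10 genes had a negative log2 change, with a median of -0.71 against 0.00 over all probes tested. Of the 10, 2 passed the call, Mcm5 and Mcm2, where 1.36% of all probes were called lower. A further 2, Mcm3 and Mcm4, passed the adjusted p alone, which 4.95% of all probes did in this direction. The groups did not overlap for 7 of the 10 genes, with all irradiated arrays below all controls, as for 15.9% of all probes. No gene of the 10 was called higher in either tissue at any dose.

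**Figure D1:**
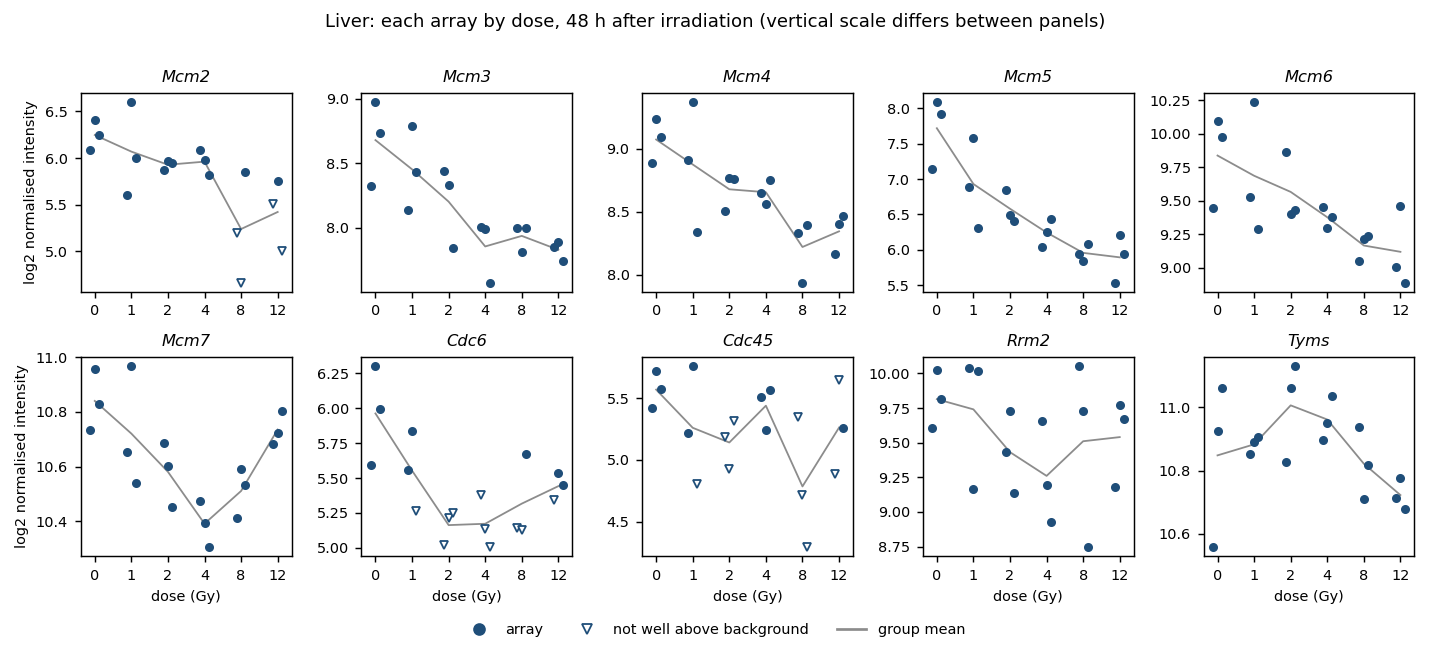
Log2 normalised intensity (vertical axis, scaled separately in each panel) of the 10 genes in liver against dose in Gy, with 1 point per array, open triangles for arrays where the probe was not well above background, and a line through the group means. Mcm5 drops from between 7.15 and 8.09 at 0 Gy to between 5.53 and 6.21 at 12 Gy, while Tyms stays between 10.56 and 11.13 on all 18 arrays.

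Mcm5, a helicase subunit that sits at the gate through which DNA enters the ring, read 7.15, 8.09 and 7.92 at 0 Gy, 6.90, 7.59 and 6.31 at 1 Gy and 6.84, 6.49 and 6.41 at 2 Gy. It read 6.04, 6.26 and 6.44 at 4 Gy, 5.94, 5.84 and 6.09 at 8 Gy and 5.53, 6.21 and 5.94 at 12 Gy. Every array from 2 Gy upward was below every control, and at 1 Gy the groups overlapped. The log2 change against 0 Gy was -1.47 ± 0.29, adjusted p = 0.0144 at 4 Gy, -1.76 ± 0.29, adjusted p = 0.00253 at 8 Gy and -1.83 ± 0.29, adjusted p = 0.00174 at 12 Gy (SE, n = 3 per group, limma). This is 3.55-fold lower at 12 Gy. At 1 and 2 Gy the changes were -0.79 and -1.14, with adjusted p = 0.62 and adjusted p = 0.12 (limma). Its dose trend of -1.51 ± 0.31, adjusted p = 0.00387 was the only one of the 10 called, where 1.13% of all probes fell. The 4 Gy call was lost without either of the controls 11 and 21 or either of the 4 Gy samples 4 and 14 (adjusted p = 0.0826, 0.0534, 0.0645 and 0.0513, limma), while the 8 and 12 Gy calls held without any 1 sample.

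Mcm2, the subunit across the gate from Mcm5, read 6.08, 6.41 and 6.25 at 0 Gy, 5.20, 4.66 and 5.85 at 8 Gy and 5.51, 5.75 and 5.01 at 12 Gy, and it was not well above background on 2 of 3 arrays at each of 8 and 12 Gy. All arrays at 2, 8 and 12 Gy were below the controls, with a log2 change of -1.01 ± 0.28, adjusted p = 0.0359 at 8 Gy and -0.82 ± 0.28, adjusted p = 0.0963 at 12 Gy (SE, limma). The 8 Gy call sat at the threshold and was lost without any 1 of the 3 controls or of the 8 Gy samples 5 and 15, with log2 changes of -1.09 to -0.72 and adjusted p = 0.0652 to 0.139 (limma).

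Mcm3, the subunit beside Mcm5 in the ring, read 8.33, 8.98 and 8.74 at 0 Gy, 8.00, 7.99 and 7.58 at 4 Gy, 8.00, 7.82 and 8.00 at 8 Gy and 7.85, 7.89 and 7.74 at 12 Gy. The groups did not overlap at 4, 8 or 12 Gy, and the log2 change of -0.85 ± 0.20, adjusted p = 0.02 (SE, limma) passed the test without reaching the fold of the call. With slide as a fixed term it was -0.28, adjusted p = 0.831 (limma). Its other probes moved alike, by -0.89 (adjusted p = 0.0118) and -0.76 (adjusted p = 0.0138, limma). Mcm4 read 8.89, 9.24 and 9.10 at 0 Gy, 8.33, 7.93 and 8.40 at 8 Gy and 8.16, 8.40 and 8.47 at 12 Gy, again with no overlap, a change of -0.85 ± 0.21, adjusted p = 0.0202 at 8 Gy and of -0.73 ± 0.21, adjusted p = 0.0494 at 12 Gy (SE, limma). Mcm6 read 9.44, 10.09 and 9.98 at 0 Gy, 9.05, 9.21 and 9.24 at 8 Gy and 9.01, 9.46 and 8.89 at 12 Gy. It was below the controls on all arrays at 8 Gy, overlapped them at 12 Gy and passed at neither dose (-0.67 ± 0.23, adjusted p = 0.085 and -0.72 ± 0.23, adjusted p = 0.0825, limma).

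Mcm7, whose gene also hosts the miR-106b cluster in an intron, read 10.73, 10.96 and 10.83 at 0 Gy, 10.47, 10.39 and 10.31 at 4 Gy and 10.68, 10.72 and 10.80 at 12 Gy. All 4 Gy arrays were below the controls, with a change of -0.45 ± 0.12, adjusted p = 0.0553 (SE, limma), and at 12 Gy the groups overlapped. The 95% interval of its change at 12 Gy was -0.36 to 0.15, which leaves out any fall by 1 on the log2 scale.

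As dose trends, 5 subunits passed the adjusted p alone, which 5.47% of all probes did with a fall: Mcm2, Mcm3, Mcm4, Mcm5 and Mcm6. The trends were -0.91 ± 0.23, adjusted p = 0.0159 for Mcm2, -0.73 ± 0.19, adjusted p = 0.0201 for Mcm3, -0.73 ± 0.18, adjusted p = 0.0119 for Mcm4 and -0.70 ± 0.18, adjusted p = 0.0175 for Mcm6 (SE, limma). Each of these falls was under 1 on the log2 scale. None of the 5 passed with slide as a fixed term, where the Mcm3 trend was -0.04, adjusted p = 0.972. In a random block by slide the Mcm3 trend was -0.65, adjusted p = 0.0664 and the other 4 passed the adjusted p (limma). Mcm7 had -0.07 ± 0.13, adjusted p = 0.802 and did not pass.

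Cdc6, which loads the ring, and Cdc45, which activates it, were near the detection limit in liver. Where no array of a group was well above background, the fold was counted from the controls. For each array of the group the higher of the probe's own signal and the lowest signal well above background was used. In both cases below the fold equalled the estimate of the model, so it is not a lower limit. Cdc6 was well above background on all 3 controls (5.59, 6.30 and 5.99) and on none at 2 and 4 Gy. By this estimate it was 1.73-fold lower at 4 Gy (adjusted p = 0.0433, limma). At 12 Gy it was measured on 2 of 3 arrays, with a change of -0.52 ± 0.20, adjusted p = 0.14 (SE, limma). Cdc45 was well above background on all controls (5.42, 5.72 and 5.57) and on 0 of 3 arrays at 8 Gy. It was estimated as 1.72-fold lower there and did not pass (adjusted p = 0.0835, limma), with a log2 interval of -1.36 to -0.20. At 4 Gy it was measured on all 3 arrays and overlapped the controls (5.51, 5.24 and 5.56), so its values had no order with dose. The second Cdc45 probe was well above background on 1 of 3 controls and on 0 of 3 arrays at 8 Gy. It overlapped its controls at 8 Gy, with a change of -0.18, adjusted p = 0.476 (limma).

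Neither nucleotide enzyme passed in liver. Rrm2 read 9.60, 10.03 and 9.81 at 0 Gy, 9.66, 9.20 and 8.93 at 4 Gy, 10.05, 9.73 and 8.75 at 8 Gy and 9.18, 9.77 and 9.67 at 12 Gy, overlapping at every dose, with a trend of -0.18 ± 0.26, adjusted p = 0.738 and a 95% interval of -0.73 to 0.37. Tyms read 10.56, 10.93 and 11.06 at 0 Gy, 10.90, 10.95 and 11.04 at 4 Gy and 10.71, 10.78 and 10.68 at 12 Gy, with a trend of -0.18 ± 0.11, adjusted p = 0.326 and an interval of -0.40 to 0.04. The intervals of both leave out a fall by 1 over 12 Gy. The second probe of Tyms had a trend of -0.17 ± 0.09, adjusted p = 0.261 (SE, limma).

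Over the other doses in liver, the count of the 10 genes called lower was 0 at 1 Gy (background 0.0209%), 0 at 2 Gy (0.164%), 1 at 4 Gy (0.623%) and 1 at 12 Gy (1.33%), in each case from Mcm5. At 12 Gy 3 passed the adjusted p alone (4.1% of all probes), namely Mcm3, Mcm4 and Mcm5. The groups did not overlap for 5 genes at 4 Gy (background 15.3%) and 5 at 12 Gy (15%). Between 12 and 1 Gy, which leaves the controls out, 0 were called (0.618%) and 8 of 10 were lower, with Mcm5 at -1.04 ± 0.29, adjusted p = 0.067 (SE, limma). With slide as a fixed term of the model no liver call was kept. This fit joins the controls to the higher doses only through 2 Gy, with 1 such array on slide 2, so slide and dose are hardly separated in it. At 12 Gy Mcm5 then had -1.93, adjusted p = 0.184, Mcm4 -1.04, adjusted p = 0.34 and Mcm2 -0.76, adjusted p = 0.667, and Mcm3 at 8 Gy had -0.20, adjusted p = 0.84 (limma). With slide as a random block the Mcm5 calls were kept (-1.82, adjusted p = 0.00384 at 12 Gy), and Mcm2 at 8 Gy had -1.02, adjusted p = 0.0692 (limma). Within slide 1 alone, 9 of the 10 genes were lower at 1 Gy than at 0 Gy (median -0.19) and 9 were lower at 2 Gy (median -0.31), and within slide 2 there were 6 lower at 8 than at 4 Gy (median -0.18).

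In lung Rrm2 fell from 2 Gy and Mcm5 from 4 Gy. All 10 genes were below their control mean at every dose from 1 to 8 Gy, with median log2 changes of -0.36 at 1 Gy, -0.58 at 2 Gy, -0.72 at 4 Gy and -0.71 at 8 Gy, against 0.01 to 0.04 over all probes. At 4 and at 8 Gy 2 genes were called, Mcm5 and Rrm2, where 1.22% and 1.99% of all probes were called lower. A further 2 passed the adjusted p alone at each dose, Mcm6 with Mcm7 at 4 Gy and with Mcm3 at 8 Gy, against 1.54% and 2.57% of all probes. The groups did not overlap for 7 genes at each of these doses, as for 7.26% and 6.98% of all probes. At 1 Gy 0 were called (background 0.0114%) and at 2 Gy 1, Rrm2 (0.375%), while 6 genes did not overlap their controls at 2 Gy (6.53%).

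**Figure D2:**
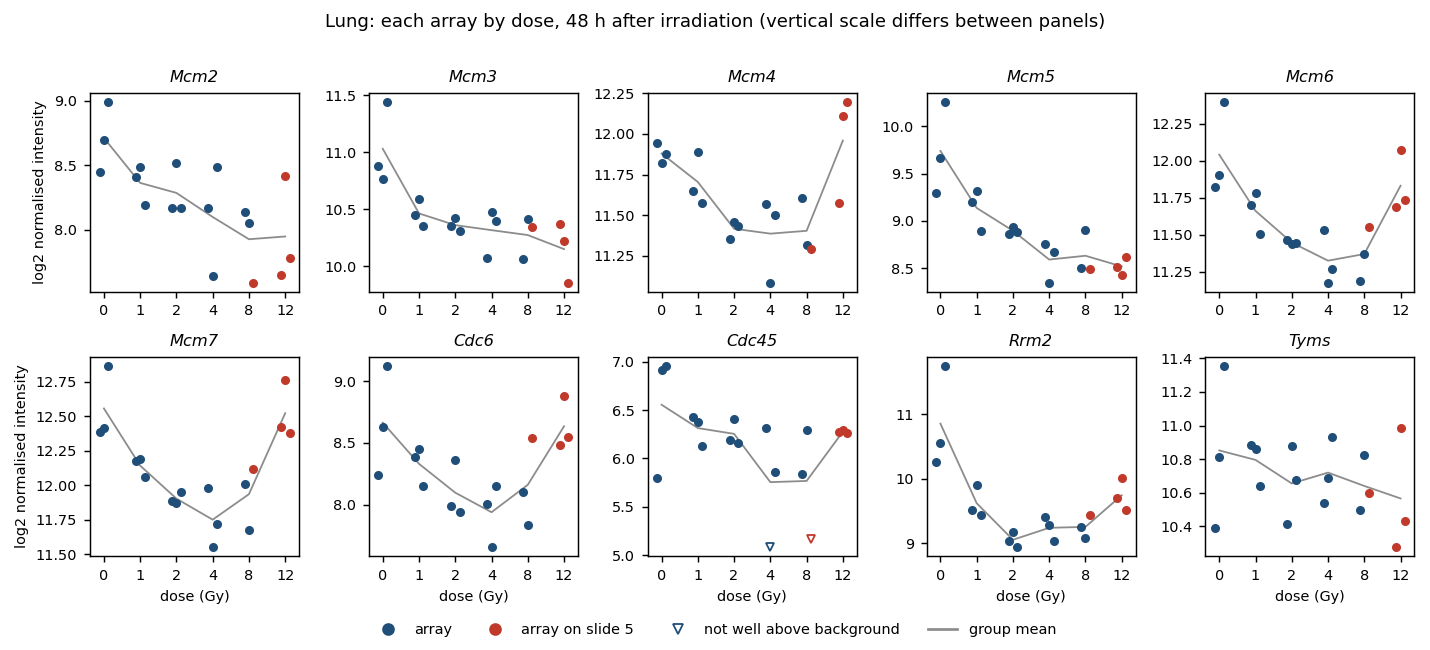
Log2 normalised intensity (vertical axis, scaled separately in each panel) of the 10 genes in lung against dose in Gy, with 1 point per array, red for the arrays of slide 5, open triangles for arrays where the probe was not well above background, and a line through the group means. Rrm2 falls from between 10.26 and 11.75 at 0 Gy to between 8.94 and 9.18 at 2 Gy, and the 12 Gy means of Mcm4, Mcm6, Mcm7, Cdc6 and Rrm2 stand above their 8 Gy means.

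Rrm2, the regulated subunit of ribonucleotide reductase, read 10.26, 10.56 and 11.75 at 0 Gy, 9.52, 9.91 and 9.43 at 1 Gy and 9.04, 9.18 and 8.94 at 2 Gy. It read 9.41, 9.28 and 9.03 at 4 Gy, 9.25, 9.08 and 9.43 at 8 Gy and 9.71, 10.01 and 9.52 at 12 Gy. Every irradiated array was below every control, and the spread of the controls was wide, with sample 21 the highest. The log2 change was -1.23 ± 0.29, adjusted p = 0.201 at 1 Gy, -1.80 ± 0.29, adjusted p = 0.00665 at 2 Gy, -1.61 ± 0.29, adjusted p = 0.00525 at 4 Gy and -1.60 ± 0.29, adjusted p = 0.00317 at 8 Gy (SE, n = 3 per group, limma). At 2 Gy it was 3.48-fold lower, and at 12 Gy 2.16-fold lower (-1.11 ± 0.29, adjusted p = 0.0137, limma). The 1 Gy fall lay within slide 3, where dose and slide are not mixed, and it did not pass the adjustment. The mean was lowest at 2 Gy, and the linear trend of -0.48 ± 0.42, adjusted p = 0.417 did not pass (limma). With slide as a random block Rrm2 had -1.76, adjusted p = 0.171 at 2 Gy, -1.58, adjusted p = 0.115 at 4 Gy, and at 12 Gy -1.15, adjusted p = 0.111 (limma). The 2 Gy call was lost without sample 23 (-1.74, adjusted p = 0.0509, limma). The 12 Gy change fell short of the fold of the call without control 21 (-0.66) or sample 26 (-0.998).

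Mcm5 in lung read 9.30, 9.66 and 10.26 at 0 Gy, 9.20, 9.32 and 8.89 at 1 Gy and 8.87, 8.94 and 8.89 at 2 Gy. It read 8.76, 8.35 and 8.67 at 4 Gy, 8.50, 8.90 and 8.49 at 8 Gy and 8.51, 8.42 and 8.62 at 12 Gy. All arrays from 2 Gy upward were below all controls. The log2 change was -1.15 ± 0.21, adjusted p = 0.00714 at 4 Gy, -1.11 ± 0.21, adjusted p = 0.00527 at 8 Gy and -1.22 ± 0.21, adjusted p = 0.00131 at 12 Gy (SE, limma), or 2.33-fold lower at 12 Gy. Without control 21 the changes at 4, 8 and 12 Gy were -0.89, -0.85 and -0.96, each past the adjusted p and short of the fold of the call. With slide as a random block Mcm5 had -1.18, adjusted p = 0.103 at 4 Gy and -1.12, adjusted p = 0.0536 at 8 Gy (limma).

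Of the remaining subunits, Mcm3 read 10.88, 10.77 and 11.44 at 0 Gy, 10.44, 10.59 and 10.35 at 1 Gy, 10.07, 10.41 and 10.34 at 8 Gy and 10.37, 10.22 and 9.86 at 12 Gy, all irradiated arrays being below all controls at these doses. Its change was -0.76 ± 0.19, adjusted p = 0.0325 at 8 Gy and -0.88 ± 0.19, adjusted p = 0.00511 at 12 Gy (SE, limma). Mcm2 read 8.45, 8.70 and 8.99 at 0 Gy, 8.14, 8.05 and 7.59 at 8 Gy and 7.65, 8.41 and 7.78 at 12 Gy and changed by -0.76 ± 0.24, adjusted p = 0.0373 at 12 Gy (SE, limma), without overlap. It was called in lung on 2 other scalings, with -1.05, adjusted p = 0.0454 at 8 Gy and -1.08, adjusted p = 0.0116 at 12 Gy on Agilent's processed signal. On the deposited value table it had -1.04, adjusted p = 0.0201 and -1.15, adjusted p = 0.00386 (limma).

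Mcm4, Mcm6 and Mcm7 had their lowest means at 4 Gy and stood higher at 12 Gy. Mcm7 read 12.39, 12.42 and 12.87 at 0 Gy, 11.98, 11.55 and 11.72 at 4 Gy, 12.01, 11.68 and 12.12 at 8 Gy and 12.42, 12.76 and 12.38 at 12 Gy. Its change was -0.81 ± 0.17, adjusted p = 0.0197 at 4 Gy and -0.03 ± 0.17, adjusted p = 0.911 at 12 Gy (SE, limma). Mcm6 read 11.82, 11.90 and 12.40 at 0 Gy, 11.53, 11.17 and 11.27 at 4 Gy, 11.18, 11.37 and 11.55 at 8 Gy and 11.69, 12.07 and 11.73 at 12 Gy, with changes of -0.72 ± 0.17, adjusted p = 0.0423 and -0.21 ± 0.17, adjusted p = 0.419 at 4 and 12 Gy (limma). Mcm4 read 11.94, 11.82 and 11.87 at 0 Gy, 11.61, 11.32 and 11.29 at 8 Gy and 11.57, 12.11 and 12.20 at 12 Gy, and its 4 Gy arrays lay between 11.09 and 11.57. At 12 Gy it differed from the controls by 0.08 ± 0.18, adjusted p = 0.789 (limma).

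Cdc6 was well above background on all 18 lung arrays and Cdc45 on 16. Cdc6 read 8.24, 8.63 and 9.12 at 0 Gy, 8.01, 7.66 and 8.15 at 4 Gy and 8.48, 8.88 and 8.54 at 12 Gy, with no overlap at 4 Gy and a change there of -0.73 ± 0.23, adjusted p = 0.146 (SE, limma). Its second probe did overlap, with 7.06 to 7.76 at 0 Gy and 7.18 to 7.31 at 4 Gy, well above background on all these arrays. Cdc45 read 5.80, 6.91 and 6.96 at 0 Gy, 6.32, 5.08 and 5.86 at 4 Gy and 6.27, 6.30 and 6.26 at 12 Gy, overlapped its controls at every dose and passed at none. Tyms read 10.39, 10.81 and 11.35 at 0 Gy, 10.54, 10.69 and 10.93 at 4 Gy and 10.28, 10.99 and 10.43 at 12 Gy, also overlapping throughout, with a trend of -0.24 ± 0.17, adjusted p = 0.322 and a 95% interval of -0.60 to 0.13 (limma). Of the nucleotide enzymes, then, Rrm2 was called lower in lung and Tyms was not.

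At 12 Gy in lung the 2 genes called were again Mcm5 and Rrm2 (background 4.27%), and 4 passed the adjusted p alone (7.81%), Mcm2 and Mcm3 being the others. The median change of the 10 was -0.28 at 12 Gy, against 0.09 over all probes. Of the lung dose trends 0 were called (background 4.31%) and 3 passed the adjusted p alone (11%): Mcm5 with -0.92 ± 0.23, adjusted p = 0.00621, Mcm2 with -0.66 ± 0.20, adjusted p = 0.0188 and Mcm3 with -0.58 ± 0.19, adjusted p = 0.0242 (SE, limma). With slide as a fixed term none of the 3 passed (adjusted p = 0.947 to 0.997, limma). Mcm5 then had -0.43, Mcm2 -0.15 and Mcm3 -0.49. In a random block by slide Mcm5 had -0.86, adjusted p = 0.0246 and passed (limma). Mcm2 with -0.61, adjusted p = 0.0729 and Mcm3 with -0.57, adjusted p = 0.0668 did not (limma). From 1 to 12 Gy 0 were called lower (4.39%), and 5 of the 10 differences were negative. Without the 4 arrays of slide 5, as chosen after seeing the data, all 10 trends from 0 to 8 Gy, again given as a change over 12 Gy, were negative, from -1.95 for Rrm2 to -0.25 for Tyms, and 0 were called. Within slide 4 alone, 8 of 10 genes were lower at 4 than at 2 Gy (median -0.14), and within slide 3 all 10 were lower at 1 than at 0 Gy (median -0.36). Within slide 5, where 3 arrays of 12 Gy stand beside sample 25 of 8 Gy, 2 of 10 were lower at 12 than at 8 Gy (median 0.30), and the differences ran from -0.19 for Mcm3 to 0.67 for Mcm4 and 1.11 for Cdc45.

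**Figure D3:**
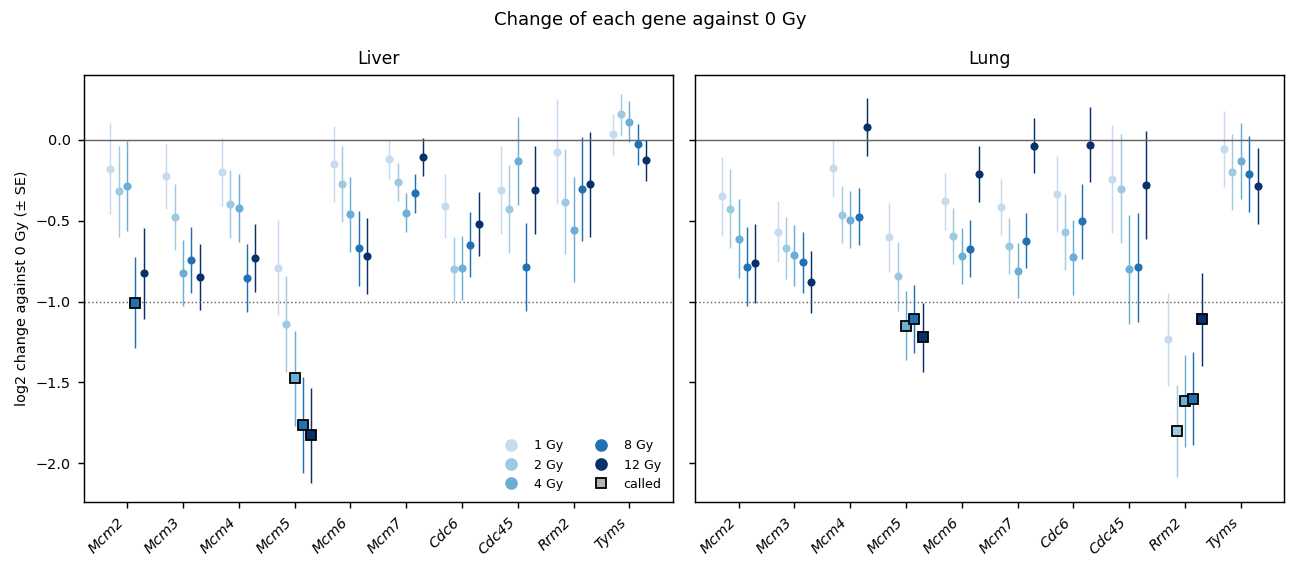
Log2 change against 0 Gy (vertical axis, with SE bars) of each gene in liver (left) and lung (right), from 1 Gy (palest) to 12 Gy (darkest), with black-edged squares where the change was called and a dotted line at -1. In liver the squares are Mcm5 at 4, 8 and 12 Gy and Mcm2 at 8 Gy, and in lung they are Rrm2 at 2 to 12 Gy and Mcm5 at 4 to 12 Gy.

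Several genes have more than 1 probe, and on slide 5 these did not always go together. The brightest Mcm3 probe and a second one were lower at 12 Gy in lung (-0.88 and -1.0 ± 0.18, adjusted p = 0.00154, limma). The third (A_55_P2499523) read 9.99, 9.96 and 10.33 at 0 Gy, 9.25, 9.45 and 9.35 at 4 Gy, 9.14, 9.51 and 9.99 at 8 Gy and 9.86, 10.38 and 9.80 at 12 Gy, a change of -0.08 ± 0.20, adjusted p = 0.812 (limma). The last value at 8 Gy, 9.99, is sample 25, the one 8 Gy array on slide 5, and it stood 0.66 above the mean of the other 8 Gy arrays. In liver all 3 probes fell together. Over all probes, sample 25 stood apart from the other 8 Gy lung arrays by more than 1 on the log2 scale for 8.8% of probes, against 4.21% and 4.47% for samples 5 and 15. Of the second probes of Mcm6 and Mcm7, which lay near background in liver, that of Mcm6 had a lung trend of -0.62 ± 0.16, adjusted p = 0.00641 beside -0.08 for the brighter probe (limma). In lung this second Mcm6 probe was well above background on all 3 controls, on 2 of 3 arrays at 8 Gy and on 0 of 3 at 12 Gy. Its 12 Gy values thus lay near background too. The part of slide 5 in the higher 12 Gy values was not tested.

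**Figure D4:**
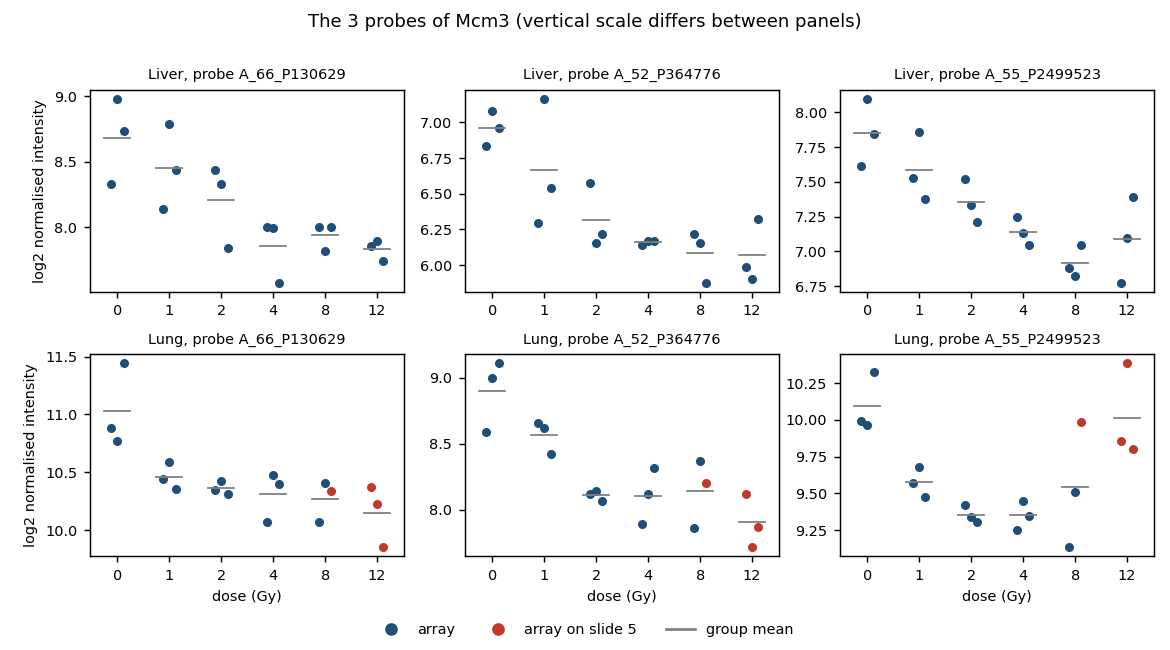
Log2 normalised intensity (vertical axis, scaled separately in each panel) of the 3 probes of Mcm3 against dose in Gy in liver (upper row) and lung (lower row), with 1 point per array, red for slide 5, and bars for group means. In lung the probe A_55_P2499523 reads 9.80 to 10.38 at 12 Gy, near its controls, where the other probes read below all their controls.

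Between tissues, the trends were compared in a model of all 36 arrays normalized together. Of the 10 differences 0 were called (background 7.19%), and Mcm4 passed the adjusted p alone, with a trend higher in lung by 0.80 ± 0.28, adjusted p = 0.044 (limma). This difference was 0.0075, adjusted p = 0.997 without the lung arrays of slide 5 (limma). Those include every lung array at 12 Gy, while the liver arrays at 12 Gy were kept. The trends then covered unlike dose ranges, so this fit cannot separate slide from dose. The difference for Rrm2, -0.36 ± 0.54, adjusted p = 0.707, had a 95% interval of -1.46 to 0.73, so that a fall called in lung and not in liver was not shown to differ as a linear trend. The lung mean of Rrm2 was lowest at 2 Gy, which a linear slope does not follow. Its changes at single doses were not compared between the tissues, so whether they differ is undecided. At 0 Gy, 6 of the 10 differed between the tissues by the call, as did 34.8% of all probes. Mcm2, Mcm3, Mcm4, Mcm6 and Cdc6 were higher in lung, led by Mcm4 at 3.38-fold (1.76 ± 0.20, adjusted p = 8.61e-09), and Tyms was higher in liver (-1.0 ± 0.20, adjusted p = 0.000101, limma). The 0 Gy arrays of liver lay on slide 1 and those of lung on slide 3. With slide as a fixed term Mcm2, Mcm6, Cdc6 and Tyms were not called. Mcm3 and Mcm6 fell short of the fold on the deposited value table (0.93 and 0.67). They also did so with the probes of a gene averaged (0.88 and 0.79), and Mcm6 on Agilent's processed signal (0.78). The Tyms difference sat at the threshold and ran from -1.28 to -0.75 on leaving out 1 sample at a time.

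The 10 genes varied together to a moderate degree. Over the 18 arrays of a tissue the median Pearson r over their 45 pairs was 0.491 in liver and 0.555 in lung, and 0.377 and 0.455 once each dose was centred on its own mean. These arrays share dose, slide and control samples, so the values are descriptions. By median r with the others Mcm5 was the most typical in liver (0.706) and Rrm2 in lung (0.764), while Tyms was the least typical in both (0.21 and 0.453). The genes outside the 10 whose profile was most like their mean profile were Kif22 (r = 0.913), Uhrf1, Ppp1r14a, Shcbp1 and Mki67 (0.901) in liver, of 18094 genes. In lung they were Sgo1 (r = 0.957), Cdca5, Kif22, Tacc3 and Kif20a (0.927), of 19828.

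Other genes of the replication machinery were counted list by list, where 1.36% of all probes were called lower at 8 Gy in liver and 1.99% in lung. By dose trend 1.13% of all probes were called falling in liver and 4.31% in lung. These shares apply to each list below. Of 25 further genes of origin licensing and firing, 1 was called lower at 8 Gy in liver, the origin-firing kinase Cdc7 (-1.01 ± 0.19, adjusted p = 0.00494), and 1 in lung, the replication initiation factor Mcm10 (-1.19 ± 0.26, adjusted p = 0.0132, limma). The median changes of the list were -0.09 and -0.23. By trend 0 were called in liver, and in lung 1, Gins3 of the GINS complex (-1.17 ± 0.30, adjusted p = 0.00748, limma). In lung, 1 of 25 is near the share of all probes. Cdt1, the partner of Cdc6 in licensing, had -0.35 ± 0.29, adjusted p = 0.48 in liver and -0.90 ± 0.23, adjusted p = 0.0379 in lung at 8 Gy. Gmnn, which inhibits Cdt1, had -0.23 ± 0.16, adjusted p = 0.38 and -0.23 ± 0.18, adjusted p = 0.594 (limma).

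Of 27 genes of fork polymerases and clamp, 1 was called lower at 8 Gy in liver, the polymerase epsilon subunit Pole2 (-1.11 ± 0.26, adjusted p = 0.0165), and 0 in lung. Pole2 was also the 1 called by trend in lung (-1.46 ± 0.33, adjusted p = 0.00286, limma), and 1 of 27 is near the share of all probes. Pcna, the sliding clamp, had 0.07 ± 0.10, adjusted p = 0.741 in liver and -0.09 ± 0.18, adjusted p = 0.869 in lung. The list medians at 8 Gy were -0.18 and -0.19.

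Of 14 further genes of deoxynucleotide supply, 0 were called at 8 Gy in liver and 2 in lung, the salvage kinases Tk1 (-2.09 ± 0.30, adjusted p = 0.000422) and Dck (-1.03 ± 0.27, adjusted p = 0.0399, limma). Tk1 averaged 9.50 ± 0.60 at 0 Gy and 7.42 ± 0.07 at 8 Gy in lung (mean ± SD, n = 3), and 12.22 ± 0.21 and 12.46 ± 0.31 in liver, on scales that were normalized separately. By trend the 1 call in liver was Samhd1 (-1.16 ± 0.16, adjusted p = 0.000191), which degrades deoxynucleotides rather than making them, and in lung Tk1 (-1.32 ± 0.40, adjusted p = 0.0186, limma). Rrm1, the partner of Rrm2, had -0.14 ± 0.15, adjusted p = 0.604 in liver and 0.31 ± 0.18, adjusted p = 0.433 in lung at 8 Gy. Rrm2b, the subunit used outside S phase, had 0.25 ± 0.33, adjusted p = 0.699 and 0.13 ± 0.26, adjusted p = 0.874 (limma).

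Of 19 E2F and G1/S regulators, 3 were called lower and 1 higher at 8 Gy in liver, and 4 lower and 1 higher in lung, against 0.839% and 0.528% of all probes called higher. The 1 higher was Cdkn1a, the p53-induced inhibitor of cyclin-dependent kinases, in both tissues (5.15 ± 0.24, adjusted p = 4.28e-08 and 3.03 ± 0.20, adjusted p = 2.12e-07, limma). Ccna2, cyclin A2 of S phase, changed by -2.47 in liver and -2.41 in lung, and Uhrf1, which keeps DNA methylation at the fork, by -1.88 and -1.87. By trend the largest called fall was E2f2 in liver (-1.89 ± 0.32, adjusted p = 0.00103) and E2f8 in lung (-1.17 ± 0.43, adjusted p = 0.0472, limma), and the 1 called rise was Cdkn1a in each, against 0.892% and 2.7% of all probes called rising.

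Most mitotic genes fell. Of 18, 14 were called lower at 8 Gy in liver (median -1.45) and 13 in lung (median -1.53). Mki67, the proliferation marker, changed by -2.98 ± 0.41, adjusted p = 0.000669 and -3.47 ± 0.42, adjusted p = 0.000107, and Top2a, the topoisomerase of mitotic chromosomes, by -2.64 ± 0.41, adjusted p = 0.00165 and -2.44 ± 0.39, adjusted p = 0.00133 (limma). By trend 5 were called in liver and 6 in lung, led by Top2a (-2.37) and Mki67 (-2.68). Whether the 10 genes and the mitotic list differ was not tested.

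**Figure D5:**
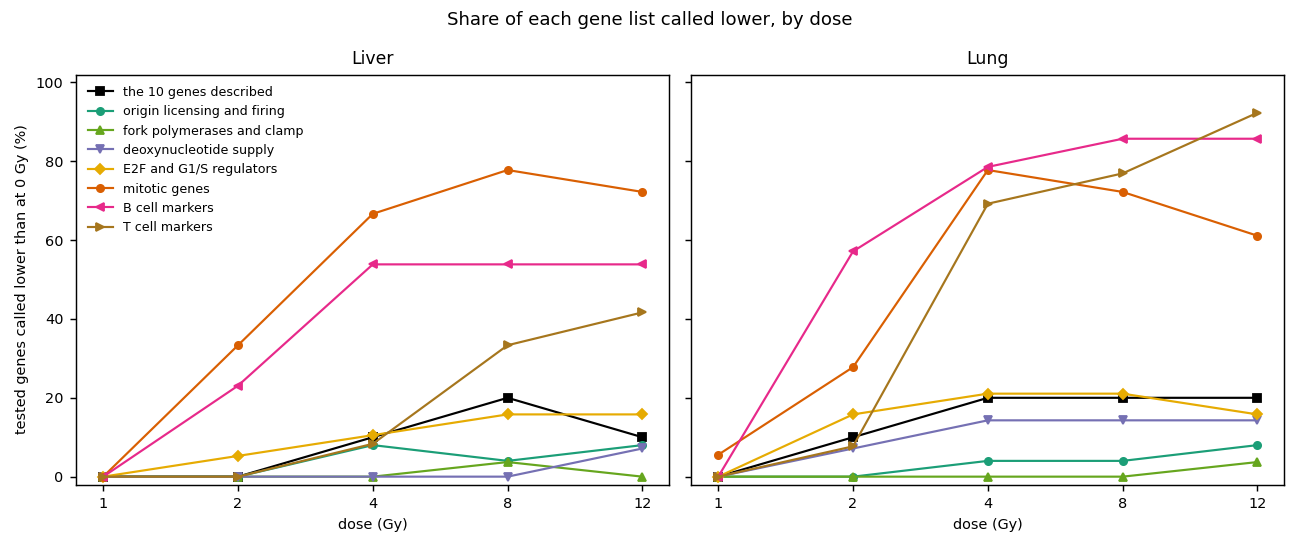
Share of tested genes of each list called lower than at 0 Gy (vertical axis, percent) against dose in Gy in liver (left) and lung (right), with 1 line per list. At 8 Gy mitotic genes stand at 14 of 18 in liver and 13 of 18 in lung, B cell markers at 7 of 13 and 12 of 14, and the 10 genes described at 2 of 10 in both.

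Markers of lymphocytes were also called lower, more of them in lung than in liver. Of the B cell markers, 7 of 13 tested were called lower at 8 Gy in liver and 12 of 14 in lung, and of the T cell markers 4 of 12 and 10 of 13. The summed linear intensity of the 14 B cell probes ran from 1610 to 2000 in the liver controls and from 606 to 670 at 8 Gy, and from 22100 to 47600 in the lung controls and 4130 to 5560 at 8 Gy. For the 13 T cell probes it ran from 9800 to 13700 and 9920 to 13100 in liver, and from 15400 to 61100 and 5220 to 5830 in lung. At 8 Gy 7 to 11 of the 14 B cell probes and 10 to 12 of the 13 T cell probes were still well above background in lung, and 5 to 6 and 8 to 9 in liver. Ms4a1, which encodes the B cell antigen CD20, had the largest called fall of the B cell list in both trends (-3.49 and -5.99), and Cd8b1, of the CD8 coreceptor, that of the T cell list (-2.30 and -6.68). Lung control 21, the highest control for 9 of the 10 genes, also had the highest sums of T cell markers (61100, against 15400 and 20900), B cell markers (47600, against 22100 and 35600) and mitotic genes (17500, against 6040 and 8190). It was highest too for the other replication lists, such as origin licensing and firing (54500, against 40800 and 48200), and for the E2F and G1/S regulators. The same held for hepatocyte markers (60800, against 57200 and 47900). For erythroid, neutrophil and lung epithelial markers another control was highest. The part of lymphocytes in the falls of the 10 genes was not tested.

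Markers of other cell types were counted in the same way. Of the erythroid markers 1 of 10 tested was called lower at 8 Gy in liver and 3 of 12 in lung, with summed intensities of 28500 to 35600 at 0 Gy and 39700 to 41800 at 8 Gy in liver, and 24600 to 25900 and 11400 to 14600 in lung. The largest called fall by trend was Alas2, the first enzyme of erythroid heme synthesis, in lung (-5.75). Of the neutrophil markers 1 of 13 was called lower and 1 higher in liver, and 1 of 14 lower and 0 higher in lung. By trend Camp had the largest called fall in both tissues (-1.15 and -2.70), and the largest called rises were Lcn2 in liver (1.21) and Stfa2l1 in lung (1.40). Of the hepatocyte markers in liver 0 of 15, and of the lung epithelial markers in lung 0 of 11, were called in either direction at 8 Gy. The 1 hepatocyte marker called by trend in lung was the liver enzyme Tat (2.63).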

How the data were processed

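RNA of 18 liver and 18 lung samples was hybridised to one-colour Agilent mouse arrays, 1 per sample. The authors deposited scanner files of Feature Extraction 11.5.1.1 with the median intensity and local background of each spot, before normalization between arrays. A deposited table of linear intensities, scaled to a 75th percentile near 1 on each array by a procedure not given in the sources used here, was an alternative after taking log2. In R 4.3.3 with limma 3.58.1, background was corrected by normexp (offset 0), control and outlier spots were left out, log2 intensities were quantile-normalized within a tissue (over all 36 arrays for comparisons between tissues) and spots of 1 probe were averaged. A probe entered the test if 1 or more arrays showed it well above background, and was tested with lmFit and eBayes on 6 dose groups or on dose in Gy. Procedures were tested on simulated data. Alternatives covered background, scaling, filter, slide and each sample in turn.

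Probes were named through RefSeq accessions (34566 of 56605), and those with Ensembl names were not used. All 10 genes were named through the probe brightest over the 36 arrays among those tested in both tissues, list genes by the same rule, with fixed exemplars (1 of them not reported here) and the largest called fall and rise per trend. Mcm10, Cdc7, Dck, Pole2 at 8 Gy, Ccna2, Uhrf1, Mki67 and Top2a at 8 Gy were named after their values were seen. The genes and lists were chosen with earlier results of these data known. The miRNA arrays were not used here. Intervals are 95% and come from the model.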

Additional observations from a re-analysis of the deposited data

Results flagged for a closer look

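The dose trend of Mcm4 differed between the tissues, being higher in lung than in liver by 0.80 on the log2 scale over 12 Gy (adjusted p = 0.044, limma over 36 arrays, 18 per tissue). It was 0.89 (adjusted p = 0.0594) with slide as a random block and 1.41 (adjusted p = 0.6) with slide as a fixed term. Without the 4 lung arrays of slide 5 it was 0.0075 (adjusted p = 0.997). That fit holds no lung array at 12 Gy but keeps the liver arrays at 12 Gy. Its dose ranges differ between the tissues, so it cannot separate slide from dose. The Mcm4 difference was called on Agilent's processed signal, at 1.25 (adjusted p = 0.000362, limma). It was also called on the deposited value table, at 1.21 (adjusted p = 0.000318, limma). Leaving out 1 sample at a time moved the adjusted p from 0.0254 to 0.155. Groups of 3 samples were not tested for a sample that stands far from the others.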

How the results depend on the processing

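Counts below are of the 10 genes passing the call, and no direction of a called gene reversed. With both tissues normalized together 1 gene was called lower in liver at 2 Gy, 1 between 12 and 1 Gy and 2 by the liver trend. With Agilent's processed signal scaled to the 75th percentile the counts were 2 at 4 Gy, 1 between 12 and 1 Gy and 2 by trend in liver, and 1 for the trend difference between tissues. The deposited value table gave those same 4 counts and 1 for the lung trend, and on both scalings Mcm2 joined Mcm5 and Rrm2 in lung at 8 and 12 Gy (3 called). Slide as a fixed term left 0 at 4, 8 and 12 Gy and 0 by trend in liver, and 2 for lung against liver at 0 Gy. It could not be fitted for the lung dose groups from 2 Gy upward, though the lung trend could be. Slide as a random block left 1 in liver at 8 Gy and, in lung, 0 at 2 Gy, 0 at 4 Gy, 1 at 8 Gy and 1 at 12 Gy. A normexp offset of 50 left 1 in liver at 8 Gy and 3 between tissues at 0 Gy. Testing dim probes too left 1 in liver at 8 Gy, and asking for a probe well above background on every array of a group gave 1 between 12 and 1 Gy in liver. By the adjusted p alone the counts were 3, 4 and 3 at 4, 8 and 12 Gy and 5 by trend in liver. In lung they were 4, 4 and 4, then 1 between 12 and 1 Gy and 3 by trend, and the trend difference had 1. A trend on log2(dose + 1), or a fold counted from the median of all probes (chosen after seeing the data), gave 1 in lung.

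Leaving out 1 sample at a time gave 0 to 2 in liver at 4 Gy, 1 to 2 at 8 Gy, 1 to 2 at 12 Gy, 0 to 1 between 12 and 1 Gy and 1 to 2 by trend. In lung it gave 0 to 2 at 2 Gy, 1 to 2 at 4 Gy, 1 to 2 at 8 Gy, 0 to 3 at 12 Gy and 0 to 1 by trend, and between tissues at 0 Gy 4 to 6. Between liver and lung samples that share a number, deviations from the group means correlated at -0.0519 to 0.0497. Of these 18 pairs 0 were above 0.1. Tissues of 1 mouse need not deviate alike, so this cannot show whether a shared number is 1 mouse. The main fits treated the samples as unpaired. The replicate block gave 0 genes for the trend difference and 6 at 0 Gy, as without it, and changed no call. The cause of these shifts was not tested. With 3 arrays per group, and Cdc6, Cdc45 and Mcm2 near background in liver, small changes could not be measured there.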
